A study of Rattus norvegicus with 39 samples.

Results

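The data described here were counts of 8 mature microRNAs (miRNAs) made from the miR-17-92 and miR-106b-25 clusters in rat sperm: rno-miR-17-5p, rno-miR-19b-3p, rno-miR-20a-5p, rno-miR-92a-3p, rno-miR-106b-5p, rno-miR-106b-3p, rno-miR-93-5p and rno-miR-25-3p. They were chosen by name, as products of these 2 clusters, out of 405 mature miRNAs in the deposited table, and all 8 were among the 105 that passed the filter on low counts. Each of the 39 libraries held the small RNA of cauda epididymal sperm from 1 wild-type Fischer rat aged 11 to 12 weeks. The males were gavaged for 5 days with ethylene glycol monomethyl ether (EGME), a solvent whose metabolite harms the developing male germ cells, and their sperm was taken 5 weeks after exposure. The groups were given doses of 0 (water only), 50, 60 or 75 mg/kg/d, named EGME0, EGME50, EGME60 and EGME75 here, with n = 10, 10, 9 and 10 males. The question was how the members' levels in sperm differed with dose. The samples were bulk RNA, so fewer cells of a type and less RNA per cell cannot be told apart.

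A miRNA cluster is a run of hairpins cut from a shared primary transcript, and each hairpin can give a mature miRNA from its 5p arm, its 3p arm or both. The mature miRNA pairs with target messenger RNAs mainly through its seed, so miRNAs with the same seed share many predicted targets whatever locus they come from. The miR-17-92 cluster and its paralog miR-106b-25 are known for promoting proliferation and cell survival, and both are transcribed in male germ cells.

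The mature sequences, from RefSeq (assembly GRCr8, all 8 members matched by name), are shown with the seed, bases 2 to 8 from the 5′ end, in capitals, because the members fell into 4 seed groups that cut across the clusters. The first group held these 4 members, 2 from each cluster.

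rno-miR-17-5p: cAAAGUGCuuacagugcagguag
rno-miR-20a-5p: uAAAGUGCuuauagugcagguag
rno-miR-93-5p: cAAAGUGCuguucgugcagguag
rno-miR-106b-5p: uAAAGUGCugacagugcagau

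The second seed was shared by rno-miR-92a-3p of the first cluster and rno-miR-25-3p of the other.

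rno-miR-92a-3p: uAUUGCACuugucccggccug
rno-miR-25-3p: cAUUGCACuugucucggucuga

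The remaining 2 members had seeds of their own among the 8, and rno-miR-19a-3p, another product of the first cluster, is shown because it shares the seed of rno-miR-19b-3p.

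rno-miR-19b-3p: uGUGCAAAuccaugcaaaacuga
rno-miR-19a-3p: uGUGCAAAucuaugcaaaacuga
rno-miR-106b-3p: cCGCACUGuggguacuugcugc

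Several of these sequences are close to identical. Counting positions from 1 at the 5′ end, rno-miR-17-5p and rno-miR-20a-5p differed only by C1U and C12U, and rno-miR-19b-3p and rno-miR-19a-3p only by C11U. How reads that fit more than 1 miRNA were counted is not given in the sources used here, so the split of counts within these pairs is uncertain.

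In the same assembly, Mir17, Mir18a, Mir19a, Mir20a, Mir19b1 and Mir92a1 lie in this order on chromosome 15, and Mir106b, Mir93 and Mir25 lie in this order on chromosome 12 inside Mcm7, a gene for a subunit of the replicative DNA helicase. The paralogous miR-106a-363 cluster on chromosome X holds hairpins that give exactly the mature sequences of miR-17-5p (Mir106a), miR-19b-3p (Mir19b2) and miR-92a-3p (Mir92a2). Counts of these 3 members therefore cannot be assigned to 1 locus. Products whose sequence is found at 1 locus showed which loci gave counts. The 6 such products of chromosome 15 outside the members, among them miR-18a-5p and miR-19a-3p, had 5095 counts over all libraries. The 4 such products of chromosome X had 51 counts.

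The members were read in small miRNA totals. Between 139 and 38208 counts of mature miRNAs were read per library, with medians of 15324.5, 14785.5, 9270 and 3201.5 counts at EGME0, EGME50, EGME60 and EGME75. The 3 libraries under 1000 counts were all EGME75 (replicates 7, 23 and 24, with 995, 807 and 139 counts), and the shallowest control, EGME0 replicate 33, had 1098. Levels below are counts scaled to 1e+06 mature miRNA counts per library after trimmed-mean (TMM) scaling, called CPM. The TMM factors ran from 0.69 to 1.0 in the control libraries and from 0.98 to 2.2 at EGME75. A count of 0 allows up to 3 counts, which for EGME75 replicate 24 is 10049 CPM and for EGME75 replicate 32 is 318 CPM, for counting error only.

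In control sperm the 8 members held 9.38% ± 2.80 (SD, n = 10) of all mature miRNA counts. On the scale of CPM per nucleotide of mature sequence, miR-19b-3p stood first at 2998, followed by miR-20a-5p (1060), miR-93-5p (615), miR-17-5p (268), miR-25-3p (171), miR-106b-3p (97.1), miR-92a-3p (56.1) and miR-106b-5p (55.2). Neighbours in this order had overlapping ranges over the control libraries. Within libraries, miR-19b-3p was above miR-20a-5p in 10 of 10 controls and miR-93-5p above miR-17-5p in 10 of 10. By contrast, miR-92a-3p was above miR-106b-5p in 3 of 10 and tied with it in replicates 26 (6 counts each) and 33 (0 each). At EGME75 miR-19b-3p, miR-20a-5p and miR-93-5p were still the first 3 in this order, and both arms of miR-106b were last.

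**Figure D1:**
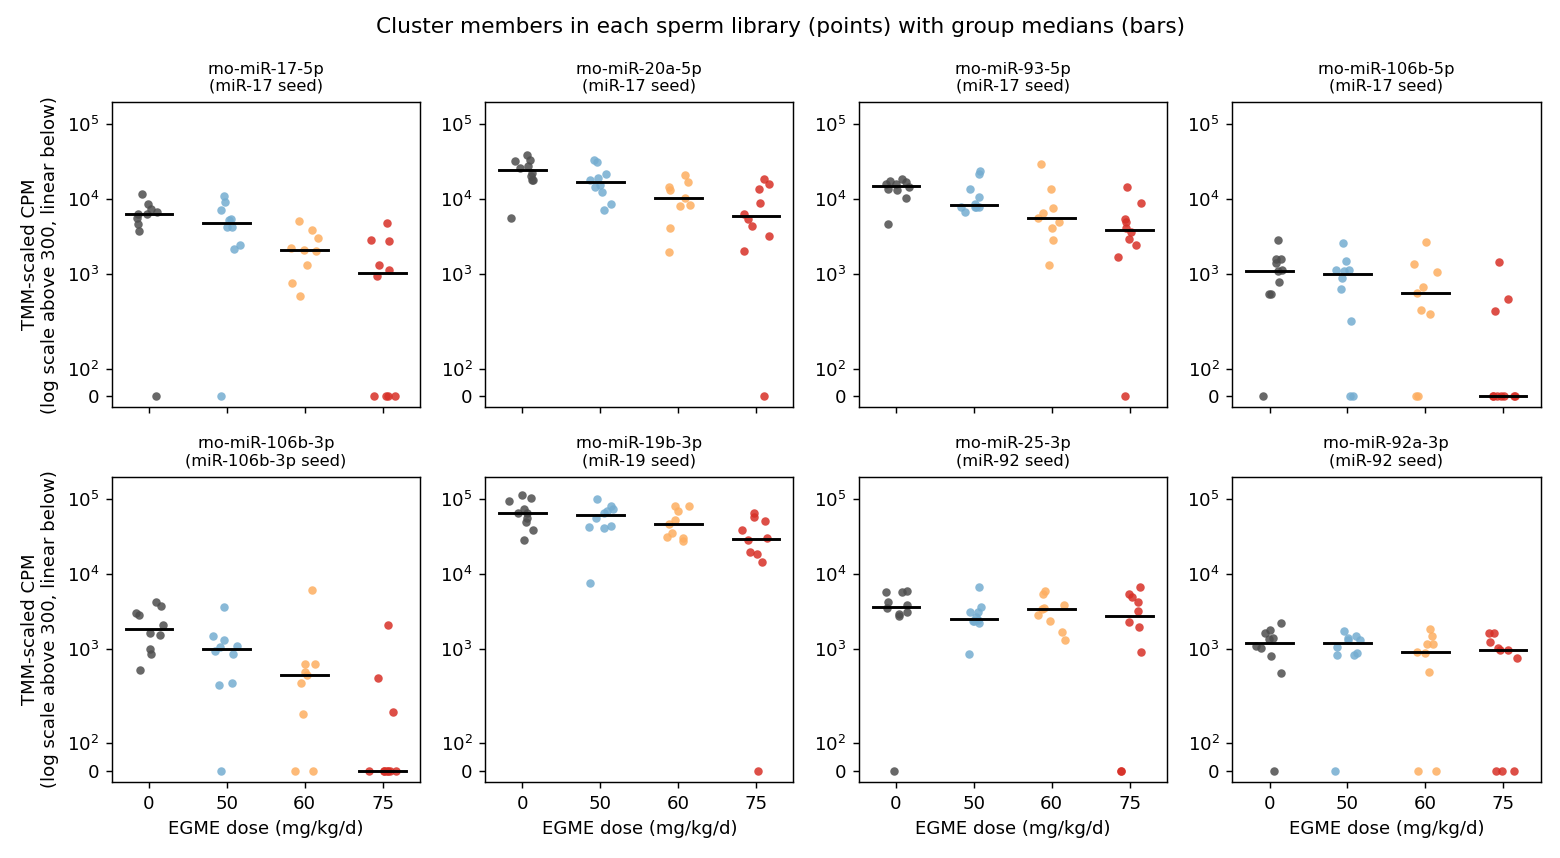
Level of each member (vertical axis, TMM-scaled CPM, log scale above 300 and linear below) against EGME dose (horizontal axis, mg/kg/d). Each point is 1 library and each bar the group median. The miR-17 seed members, miR-106b-3p and miR-19b-3p have lower medians at higher doses, with 7 of 10 EGME75 libraries at 0 for each arm of miR-106b. The medians of miR-25-3p and miR-92a-3p do not fall at each step. The range of every member overlaps control at every dose.

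Against control, all 8 members had a negative fitted change at every dose, and the number that passed the test grew with dose: 0 of 8 at EGME50, 3 of 8 at EGME60 and 6 of 8 at EGME75, all lower. The share of all 105 tested miRNAs called lower was 0% at EGME50, 11.4% at EGME60 and 21% at EGME75. The members' median log2 fold change was -0.32, -0.71 and -1.57 at the 3 doses, beside -0.01, 0.11 and -0.10 over all miRNAs tested. The 3 comparisons share the control libraries. At EGME75 the members that fell were miR-17-5p, miR-19b-3p, miR-20a-5p, miR-93-5p and both arms of miR-106b, and the 2 that did not pass were miR-92a-3p and miR-25-3p. Scaled by the totals of all 4 deposited tables, which moved the median of all tested miRNAs at EGME75 to -1.13, these 6 members were called there with changes of -2.20 to -4.92, where 37.1% of all tested miRNAs were called lower, and 0 of 8 were called at EGME60, where 0% were. Scaled by miRNA totals alone, which moved that median to 0.50, 4 of 8 members were called at EGME75. The calls of miR-19b-3p (-0.48, edgeR adjusted p = 0.178) and miR-106b-5p (-1.38, adjusted p = 0.113) were lost. Of all 105 tested miRNAs, 10 were called lower there. Adjusted p-values are from edgeR's quasi-likelihood test with Benjamini-Hochberg adjustment over the 105 miRNAs.

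**Figure D2:**
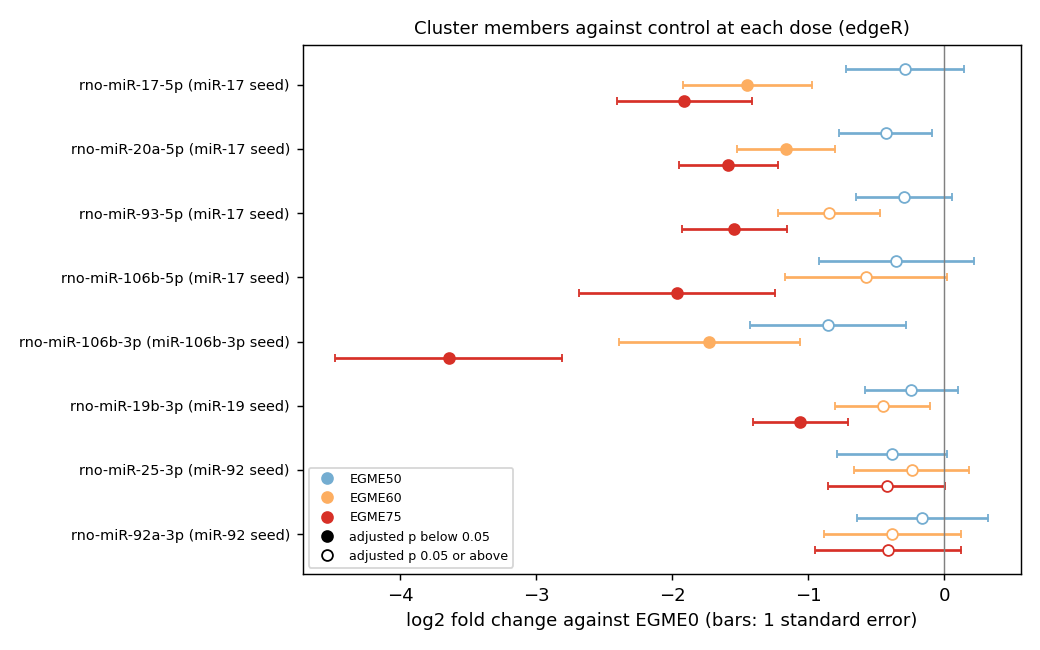
Log2 fold change of each member against EGME0 (horizontal axis) at the 3 doses, with bars of 1 standard error, and filled points for an edgeR adjusted p below 0.05. At EGME75 the points run from -3.64 for rno-miR-106b-3p to -0.41 for rno-miR-92a-3p, and 6 of 8 are filled.

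The 4 miR-17 seed members were taken first. miR-20a-5p, a product of the chromosome 15 cluster alone, had a lowest, median and highest level of 5608, 24380 and 38941 CPM at EGME0 and of 7196, 16769 and 32992 CPM at EGME50. It had 1948, 10441 and 21278 CPM at EGME60 and 0, 5954 and 18498 CPM at EGME75. All 10 EGME75 libraries lay below the control median and 5 of 10 below the lowest control (4 with the 0 of replicate 24 at its limit of 3 counts), so the ranges overlapped in part. That lowest control was the shallow EGME0 replicate 33, with 6 counts. The log2 fold change was -1.17 (SE 0.36, edgeR adjusted p = 0.0102) at EGME60 and -1.59 (SE 0.36, adjusted p = 0.00032) at EGME75.

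miR-17-5p, which names the cluster and shares all but 2 bases with miR-20a-5p, ran from 0 over a median of 6314 to 11914 CPM at EGME0 and from 0 over 4826 to 11108 CPM at EGME50. At EGME60 its lowest, median and highest levels were 505, 2113 and 5096 CPM, and at EGME75 they were 0, 1036 and 4831 CPM. All 9 EGME60 libraries were below the control median, as were 9 of 10 EGME75 libraries with each 0 set at its limit of 3 counts. EGME75 replicate 24, at 0, was too shallow to be placed, and 1 control, the shallow replicate 33, was itself at 0. The log2 fold change was -1.45 (SE 0.47, edgeR adjusted p = 0.0146) at EGME60 and -1.91 (SE 0.49, adjusted p = 0.00134) at EGME75. Without EGME60 replicate 38 the call at EGME60 was lost (adjusted p = 0.0508).

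miR-93-5p, the middle hairpin of the Mcm7 cluster, ran from 4673 over a median of 15242 to 18708 CPM at EGME0 and from 6772 over 8292 to 23473 CPM at EGME50. At EGME60 it ran from 1323 over 5543 to 29954 CPM, and at EGME75 from 0 over 3881 to 14387 CPM. All 10 EGME75 libraries lay below the control median and 6 of 10 below the lowest control, or 5 with the 0 of replicate 24 at its limit. The lowest control was again the shallow EGME0 replicate 33, with 5 counts. The log2 fold change was -0.85 (SE 0.37, edgeR adjusted p = 0.0699) at EGME60 and -1.54 (SE 0.38, adjusted p = 0.000909) at EGME75. One EGME60 library, replicate 6, stood far above the others, and without it the EGME60 difference passed (-1.30, adjusted p = 0.00436), as it did without EGME0 replicate 9 (adjusted p = 0.0293).

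miR-106b-5p, the least abundant of this seed group, ran from 0 over a median of 1114 to 2884 CPM at EGME0 and from 0 over 988 to 2620 CPM at EGME50. It ran from 0 over 554 to 2676 CPM at EGME60, and at EGME75 only 3 of 10 libraries had a count, with a highest level of 1441 CPM. As read, 9 of 10 EGME75 libraries were below the control median, but only 4 of 10 with each 0 set at its limit of 3 counts. Its log2 fold change at EGME75 was -1.97 (SE 0.72, edgeR adjusted p = 0.0204), from 14 counts against 174 in control. The ranges overlapped, and this call was the least secure of the group: it was lost in each of 4 fits without 1 EGME75 library (replicates 8, 31, 32 and 40, adjusted p from 0.0525 to 0.0857), and in 4 of 20 such fits miR-106b-5p no longer passed the filter on low counts.

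miR-106b-3p, the other arm of the same hairpin, showed the lowest fitted value of the 8. It ran from 518 over a median of 1857 to 4177 CPM at EGME0 and from 0 over 989 to 3614 CPM at EGME50. At EGME60 its lowest, median and highest levels were 0, 450 and 6144 CPM, and at EGME75 it had 0 counts in 7 of 10 libraries and 2 counts in each of the other 3. As read, 9 of 10 EGME75 libraries lay below the lowest control, and 4 of 10 with each 0 set at its limit of 3 counts, so depth does not place the other libraries at 0 below the control range. The library above the lowest control was replicate 23, with 2 counts of 807. The log2 fold change at EGME75 was -3.64 (SE 0.83, edgeR adjusted p = 0.00032). On pooled scaled counts, 6 at EGME75 against 233 in control, the level was 13.5-fold lower, with a counting interval from 6.11-fold to 37.1-fold that leaves out the spread between males. At EGME60 the change was -1.73 (SE 0.66, adjusted p = 0.0392), a call that was lost in 13 of 19 fits without 1 library (adjusted p up to 0.127) and under 8 of 9 other settings, DESeq2 among them (adjusted p = 0.0765).

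miR-19b-3p, the most abundant member, has its sequence at both the chromosome 15 and the X-linked loci. Its level ran from 28038 over a median of 65493 to 115144 CPM at EGME0 and from 7619 over 61210 to 101826 CPM at EGME50. It ran from 27282 over 46182 to 82181 CPM at EGME60 and from 0 over 29343 to 65062 CPM at EGME75. All 10 EGME75 libraries were below the control median and 4 of 10 below the lowest control, the shallow EGME0 replicate 33 with 30 counts. The log2 fold change was -0.45 (SE 0.35, edgeR adjusted p = 0.320) at EGME60 and -1.06 (SE 0.35, adjusted p = 0.0104) at EGME75. In libraries of at least 1000 miRNA counts it was -0.82 at EGME75 and did not pass (adjusted p = 0.0586). The EGME75 call was also lost when scaled by miRNA totals alone (-0.48, edgeR adjusted p = 0.178). It was lost too with the log10 miRNA total as a covariate (-0.57, adjusted p = 0.261) and with chip as a fixed block (-0.77, adjusted p = 0.0756). It was kept with DESeq2, its size factors in edgeR, the totals of all 4 tables, no filter, and the shallowest EGME0 and EGME75 libraries left out.

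The 2 members of the miR-92 seed group passed no test against control at any dose. miR-92a-3p, the last hairpin of its cluster, ran from 0 over a median of 1212 to 2219 CPM at EGME0, from 0 over 1182 to 1748 CPM at EGME50, from 0 over 895 to 1852 CPM at EGME60 and from 0 over 960 to 1647 CPM at EGME75. miR-25-3p, the last hairpin of the Mcm7 cluster, ran from 0 over 3658 to 5916 CPM at EGME0, from 847 over 2543 to 6656 CPM at EGME50, from 1317 over 3368 to 5844 CPM at EGME60 and from 0 over 2721 to 6700 CPM at EGME75. The ranges of all 4 groups overlapped nearly completely for both, though the highest EGME75 level of miR-25-3p was 2 counts in the shallow replicate 24. At EGME75 the log2 fold change was -0.41 for miR-92a-3p (SE 0.54, edgeR adjusted p = 0.521) and -0.42 for miR-25-3p (SE 0.43, adjusted p = 0.416), and neither passed. Scaled by miRNA totals alone, both values turned to the other side of 0 (0.21 and 0.22), with the median of all tested miRNAs moved to 0.50.

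At EGME50 the 8 fitted changes ran from -0.86 for miR-106b-3p to -0.16 for miR-92a-3p, and the smallest adjusted p was 0.472. Of all 105 miRNAs tested there with edgeR, 19 had an unadjusted p below 0.05, 0 of the 8 members among them, and DESeq2 called 0 members too.

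The slope on dose over all 39 libraries, scaled to the log2 difference across 75 mg/kg/d, was negative for all 8 members and passed for 5 of 8, where 21% of all tested miRNAs were called lower. It was -2.42 for miR-106b-3p (SE 0.63, edgeR adjusted p = 0.00144), -1.65 for miR-17-5p (SE 0.46, adjusted p = 0.00276), -1.45 for miR-20a-5p (SE 0.34, adjusted p = 0.000479), -1.27 for miR-93-5p (SE 0.36, adjusted p = 0.00345) and -0.87 for miR-19b-3p (SE 0.34, adjusted p = 0.0325). The miR-19b-3p slope lost its call in 14 of 39 fits without 1 library. The slope of miR-106b-5p was -1.22 and did not pass (adjusted p = 0.0826).

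Between doses, 4 of 8 members were lower at EGME75 than at EGME50, where 10.5% of all tested miRNAs were called lower: miR-106b-3p (-2.79, SE 0.84), miR-17-5p (-1.62, SE 0.49), miR-93-5p (-1.25, SE 0.38) and miR-20a-5p (-1.16, SE 0.36), each with an edgeR adjusted p of 0.0178. This count rested on single libraries: it was 0 without EGME75 replicate 7 or replicate 8, and 1 without replicate 40. No member passed between EGME60 and EGME50 or between EGME75 and EGME60, where 0% of all miRNAs were called lower. An unadjusted edgeR p below 0.05 was found for 2 and 1 of the 8 members, beside 14 and 8 of all 105 miRNAs. DESeq2 called 0 members in both.

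The ratio of the 2 arms of miR-106b, which come from the same hairpin, was examined within libraries. The intervals given here treat the pooled reads as independent and cover counting error only. In control, 57.2% of the counts of both arms were from the 3p arm (233 counts of 3p and 174 of 5p, 95% exact interval 52.3% to 62.1%). This share was 52.2% at EGME50, 35.7% at EGME60 (interval 28.2% to 43.7%) and 30% at EGME75 (6 counts of 3p and 14 of 5p, interval 11.9% to 54.3%). The mean log2 ratio of 3p to 5p per library, 0.77 ± 1.62 (SD, n = 10) in control, differed from control by -0.42 at EGME50 and -1.20 at EGME60, and neither passed (adjusted permutation p = 0.492 and 0.327, two-sided, exact at EGME60, over 3 comparisons). In libraries with at least 20 counts over both arms the difference at EGME60 was -1.60 (4 libraries against 8). At EGME75 the difference was -1.05 and did not pass (adjusted permutation p = 0.327). There 5 of 10 libraries had no count of either arm, which the pseudocount of 0.5 sets to a log2 ratio of 0. None had 20 counts, so the test cannot decide whether the ratio differed at that dose. Within chips, the runs of 3 libraries that the labels name, the 3 differences were 0.10, -1.25 and -1.57.

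**Figure D3:**
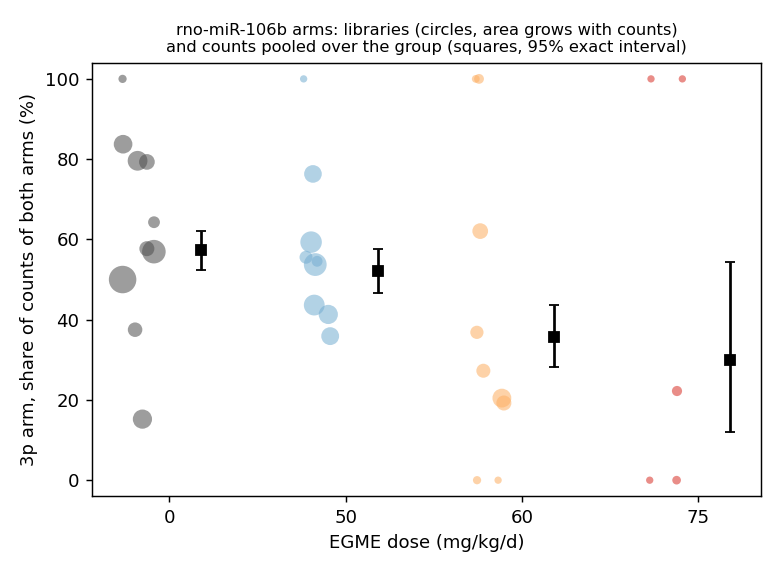
Share of the 3p arm among the counts of both arms of rno-miR-106b (vertical axis, %) against EGME dose (horizontal axis, mg/kg/d). Circles are libraries with at least 1 count, with area growing with the counts, and squares are counts pooled over the group with their 95% exact interval, from 57.2% at 0 to 30% at 75 mg/kg/d, where the circles are few and small.

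Ratios between members within a library need no scaling factor. For the 28 pairs of members, the mean log2 ratio at EGME75 was compared with EGME0, a comparison added after the data were seen. Where a library had no count of either miRNA, the pseudocount sets its log2 ratio to 0. Where counts are few, it pulls the ratio toward 0, and the EGME75 libraries were the shallowest by median. A rise of a rarer over a more abundant member can thus come in part from depth, and this part was not tested. Each of the 12 ratios of miR-92a-3p or miR-25-3p to 1 of the other 6 members was higher at EGME75, by 0.90 to 2.49 on the log2 scale. In libraries of at least 1000 miRNA counts the 12 were higher by 0.65 to 3.43. These 12 ratios share 2 miRNAs and the same libraries, so they are not independent. With all libraries, 7 of 28 pairs had an unadjusted permutation p below 0.05 and 0 of 28 passed after adjustment over the 28 pairs (smallest adjusted permutation p = 0.0950). In libraries of at least 1000 miRNA counts (7 EGME75 against 10 EGME0), 10 of 28 pairs passed. Of these, 7 paired miR-92a-3p or miR-25-3p with another member, such as miR-93-5p over miR-25-3p (-1.57, exact permutation, adjusted p = 0.0274, n = 7 and 10) and miR-20a-5p over miR-92a-3p (-1.39, exact permutation, adjusted p = 0.0400, n = 7 and 10). Another 2 paired miR-106b-3p with miR-93-5p or miR-19b-3p, and 1 was miR-19b-3p over miR-20a-5p (0.74, exact permutation, adjusted p = 0.0400, n = 7 and 10). No pair with the same seed passed, of 7. The ratio of miR-20a-5p to miR-93-5p, which share a seed but no cluster, differed by 0.0024 between EGME75 and EGME0 in these libraries, with SDs between males of 1.02 and 0.51. Of the 12 ratios that involve 1 miR-92 seed member, 7 therefore passed in the deeper libraries and 0 over all libraries. Those with miR-17-5p, those with miR-19b-3p and that of miR-106b-5p to miR-25-3p did not pass in either, and the cause was not tested.

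**Figure D4:**
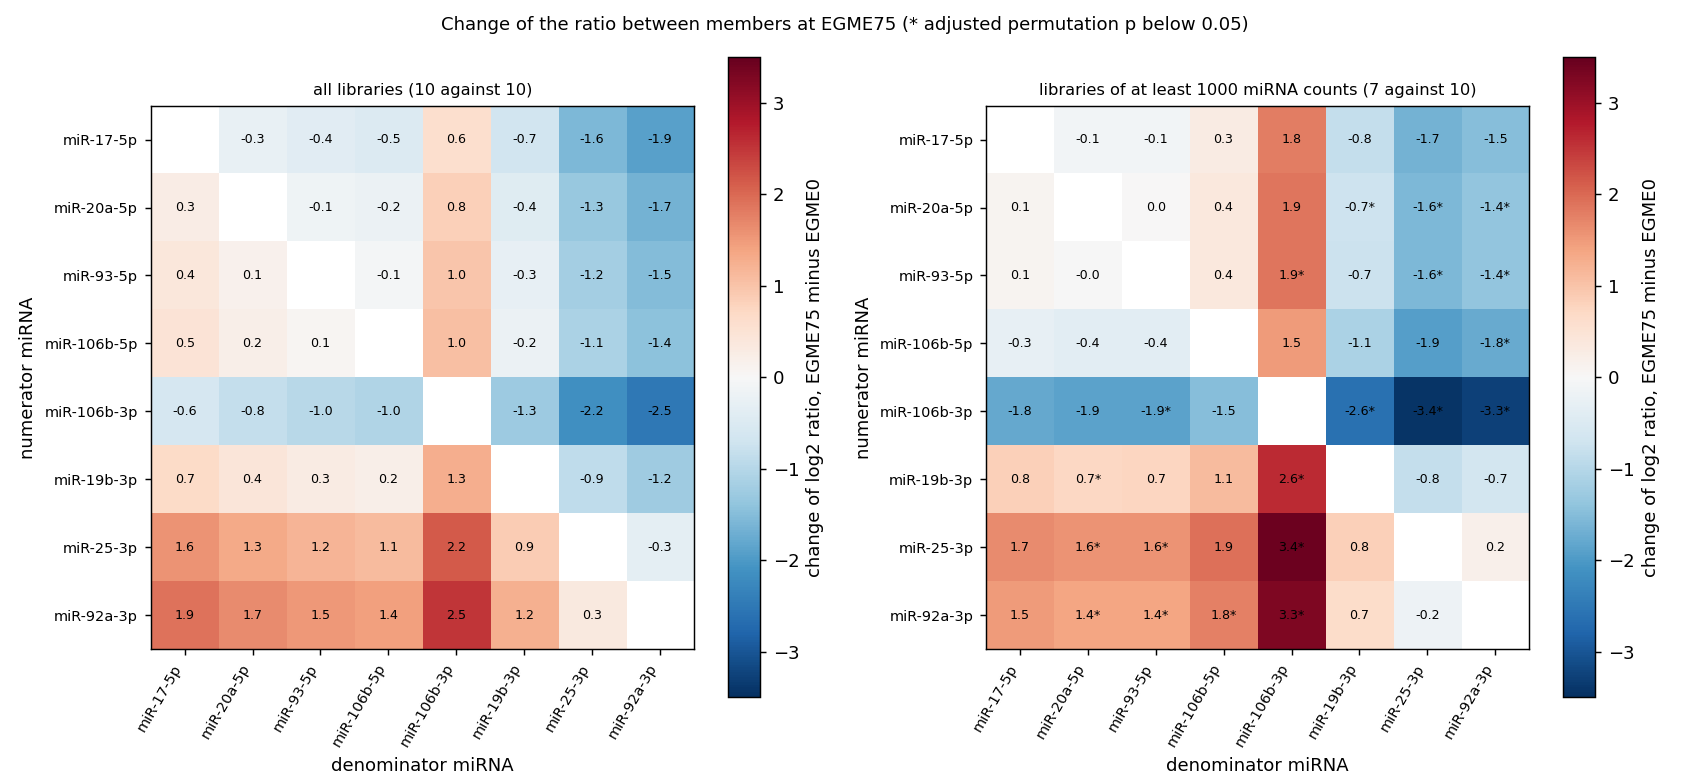
Change of the log2 ratio between 2 members, EGME75 minus EGME0 (colour and number, numerator miRNA in rows and denominator in columns), for all libraries on the left and libraries of at least 1000 miRNA counts on the right. Stars mark an adjusted permutation p below 0.05: none on the left, 10 pairs on the right, mostly along the rows of rno-miR-25-3p, rno-miR-92a-3p and rno-miR-106b-3p.

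The summed share of the 8 members among mature miRNA counts was 9.38% ± 2.80, 8.86% ± 2.42, 7.23% ± 2.09 and 5.80% ± 3.16 (SD) at EGME0, EGME50, EGME60 and EGME75. The 4 groups overlapped. By seed, the mean share of the 4 miR-17 seed members was 3.52%, 3.22%, 2.04% and 1.61%, that of miR-19b-3p was 5.32%, 5.18%, 4.70% and 3.66%, and that of the 2 miR-92 seed members was 0.374%, 0.370%, 0.414% and 0.50%. The miRNA table itself was a smaller part of all counts at the highest dose. Per 1e+06 counts of all 4 deposited tables, the members' sum was 169 ± 90.7 (SD) in control, 160 ± 106 after 50 mg/kg/d, 88.3 ± 70.7 after 60 and 31.8 ± 30.6 after 75.

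**Figure D5:**
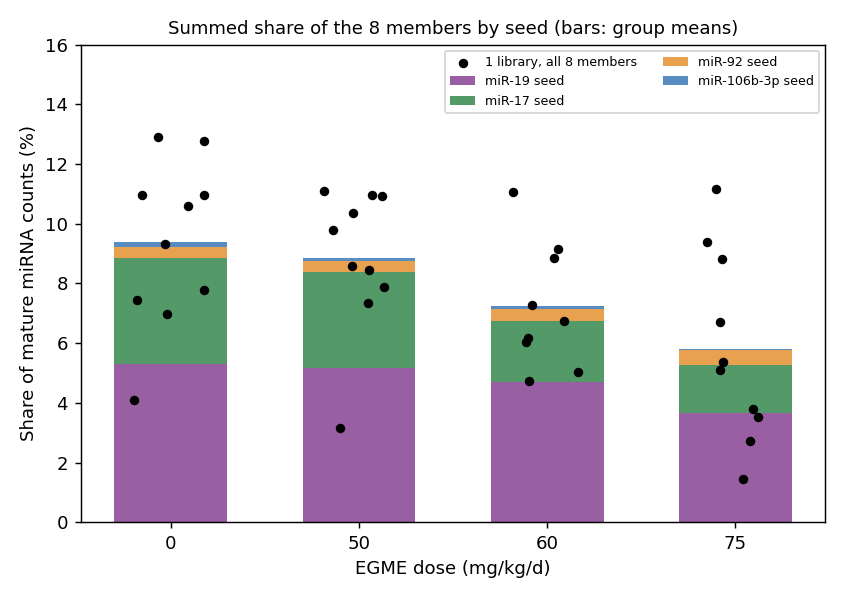
Summed share of the 8 members among mature miRNA counts (vertical axis, %) against EGME dose (horizontal axis, mg/kg/d). Bars are group means stacked by seed and points are single libraries, with mean sums of 9.38%, 8.86%, 7.23% and 5.80%.

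Of the other products of these clusters and of their X-linked paralog, 12 were in the table and 2 passed the filter on low counts, both from chromosome 15. miR-18a-5p, whose seed differs from that of miR-17-5p by 1 base, had medians of 3726, 1953, 1852 and 1179 CPM from EGME0 to EGME75, with overlapping ranges. It fell at EGME75 (-1.22, SE 0.51, edgeR adjusted p = 0.0450), a call that was lost in 14 of 20 fits without 1 library and in libraries of at least 1000 miRNA counts (-0.85, adjusted p = 0.186), and its slope was -1.24 (adjusted p = 0.0184). miR-19a-3p, the seed partner of miR-19b-3p, had medians of 10029, 7633, 4438 and 4018 CPM. Its change at EGME75 did not pass (-0.79, SE 0.39, adjusted p = 0.0934), while its slope did (-0.85, adjusted p = 0.0411), though not in 24 of 39 fits without 1 library. The other strand of Mir93, miR-93-3p, had 8, 13, 4 and 0 counts in the 4 groups, and that of Mir25, miR-25-5p, had 3, 12, 14 and 2. Both were too rare to be tested.

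The members did not all follow each other across libraries. Over the 39 libraries, Spearman's rho between pairs of members had a median of 0.45 and ran from 0.04 (miR-92a-3p with miR-106b-3p) to 0.84 (miR-17-5p with miR-20a-5p). Among the 97 tested miRNAs outside the 8, the most alike were miR-34c-5p for miR-17-5p (rho 0.86), miR-741-3p for miR-20a-5p (0.85), for miR-106b-5p (0.73) and for miR-19b-3p (0.70), miR-191a-5p for miR-106b-3p (0.80) and miR-34c-3p for miR-93-5p (0.79). The 2 miR-92 seed members had weaker partners, miR-425-5p for miR-92a-3p (0.55) and miR-743b-5p for miR-25-3p (0.49). These are descriptions over libraries that share the dose groups, depth and scaling.

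Markers of germ cells and of other cell types moved with dose in the same libraries. Of all 105 tested miRNAs, 22 were called lower and 23 higher at EGME75. The summed level of the 6 germ cell miRNAs (miR-34b-3p, miR-34b-5p, miR-34c-3p, miR-34c-5p, miR-449a-5p and miR-449c-5p) ranged from 241658 to 475018 CPM at EGME0 and from 30148 to 200983 CPM at EGME75, without overlap, and 4 of 5 tested were called lower at EGME75. miR-449c-5p was at 0 in all control libraries. The blood cell list (6 of 7 in the table) ranged from 0 to 4722 CPM at EGME0 and from 2055 to 38697 CPM at EGME75, with 3 of 3 tested called higher and miR-144-3p at 0 in both groups. Among its untested miRNAs, miR-142-5p had 43, 19, 18 and 7 counts from EGME0 to EGME75 and miR-142-3p had 5, 18, 7 and 5. The epithelium list (5 of 5) ranged from 7448 to 15599 CPM and from 14511 to 38414 CPM, with 3 of 4 tested called higher. The muscle list (4 of 4) ranged from 12403 to 37345 CPM and from 9249 to 83071 CPM, with 1 of 2 tested called higher. Its untested miRNAs went the other way. miR-133a-3p had 173, 15, 15 and 8 counts from EGME0 to EGME75, and miR-1-3p had 28, 0, 0 and 0. All mature miRNA counts summed to 165728, 176245, 128321 and 38082 in these groups. The part of these shifts in the members' changes was not tested.

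Sequencing chip and depth were also set against the members' changes. On the 6 chips that held both EGME75 and EGME0 libraries, miR-19b-3p, miR-20a-5p and miR-93-5p were lower in the EGME75 libraries on 6 of 6, miR-17-5p and both arms of miR-106b on 5 of 6, miR-92a-3p on 4 of 6 and miR-25-3p on 3 of 6. Chip 7 held EGME75 replicate 24, where a count of 0 allows up to 10049 CPM, and EGME0 replicate 33. That control had 5608 CPM of miR-20a-5p, 4673 of miR-93-5p and 3738 of miR-106b-3p, all under this limit. miR-17-5p, miR-106b-5p and miR-92a-3p were at 0 in both libraries. Chip 7 therefore cannot place these members. On chips 5 and 9, EGME75 replicates 31 and 23 had 0 counts of miR-106b-5p, with limits of 1237 and 3083 CPM. Their controls, at 549 and 1612 CPM, were under these limits. For miR-92a-3p on chip 9, the control had 806 CPM and replicate 23 was at 0. These comparisons cannot be placed either. With chip as a fixed block, 5 of 8 members were called at EGME75, without miR-19b-3p (-0.77, edgeR adjusted p = 0.0756), and 19% of all tested miRNAs were called lower. With the log10 miRNA total of each library as a covariate, 2 of 8 were called, miR-106b-3p and miR-93-5p, and miR-20a-5p had an adjusted p of 0.0564. The share of all tested miRNAs called lower was 9.52% in that fit, down from 21%. Depth fell with dose, so the parts of depth and dose cannot be told apart in full. In libraries of at least 1000 miRNA counts, 4 of 8 were called, where 12.3% of the 114 miRNAs tested were called lower.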

How the data were processed

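The authors deposited 4 tables of raw read counts for cauda sperm small RNA of 39 males (mature miRNAs, genomic tRNAs, Ensembl noncoding RNAs and RNAcentral entries), and the mature miRNA count table was analysed, with the others used only as library totals. Per the submitters' processing notes, FastQC, Bowtie and DESeq2 were used, with no versions. How reads that fit several miRNAs were counted is not given in the sources used here. Per the labels' protocols, 10 ng of RNA entered an Ion total RNA-seq kit library, and libraries ran on 13 chips of 3.

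Counts were tested with edgeR 4.0.16 (R 4.3.3): TMM scaling, filterByExpr by group, robust quasi-likelihood fits over all 39 libraries and Benjamini-Hochberg adjustment over the 105 miRNAs kept, with a threshold of 0.05. The script was checked on simulated counts. Standard errors (SE) of edgeR log2 fold changes were derived from the test, as the absolute change divided by the square root of its F statistic. Ratios used a pseudocount of 0.5 and two-sided permutation tests (scipy 1.17.1, 100000 permutations, exact where a group had under 10 libraries). DESeq2 1.42.0, other scalings, no filter, chip, depth and left-out libraries were alternatives. Named miRNAs were the members, other cluster products, marker miRNAs and, for each member, the tested miRNA outside the members with the highest Spearman rho. The members and lists were chosen with earlier results of these data known. The tables name assembly Rnor_6.0 and the RefSeq sequences come from GRCr8, so no coordinates are given.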

Additional observations from a re-analysis of the deposited data

Results flagged for a closer look

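In 7 of the 32 sets of libraries examined (8 members in 4 dose groups), the highest or lowest library stood apart from the rest of its group by Dixon's criterion. The criterion's rate of about 1 in 20 groups holds for normally distributed values. Several of these sets hold low counts and zeros, so the 7 of 32 cannot be set against that rate. EGME60 replicate 6, a library of 1990 miRNA counts, stood out for 2 members of the Mcm7 cluster: rno-miR-106b-3p at 6144 CPM (8 counts), where the other 8 libraries reached at most 637 CPM, and rno-miR-93-5p at 29954 CPM (39 counts), where the others reached at most 13888 CPM. EGME75 replicate 23 had rno-miR-106b-3p at 2055 CPM, which was 2 counts of 807, and the others reached at most 412 CPM. EGME75 replicate 15 had rno-miR-106b-5p at 1441 CPM (7 counts of 4267), with the others at or below 466.2 CPM. In EGME50, replicate 11 had rno-miR-106b-3p at 3614 CPM (29 counts) beside at most 1467 CPM, replicate 12 had rno-miR-25-3p at 6656 CPM (61 counts) beside at most 3668 CPM, and replicate 36, a library of 1681 miRNA counts, had rno-miR-92a-3p at 0 CPM beside at least 818 CPM.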

How the results depend on the processing

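No paired analysis was possible because the labels number the males without repeats across the dose groups. Of the 288 values of single members at the 3 doses and for the slope under alternatives other than leaving out 1 library, 249 kept their direction and side of the threshold, 25 lost their call, 2 gained one and 12 changed sign, all 12 in members that had not passed. Scaled by miRNA totals alone, rno-miR-92a-3p turned to 0.13, 0.038, 0.21 and 0.16 (EGME50, EGME60, EGME75 and slope) and rno-miR-25-3p to 0.14, 0.22 and 0.17 (EGME60, EGME75 and slope). At EGME50, rno-miR-92a-3p turned to 0.14 with the totals of all 4 tables and to 0.14 with chip as a block, and rno-miR-19b-3p to 0.025 and 0.041. With depth as a covariate rno-miR-92a-3p at EGME75 was 0.12. The number of members called was 0 at EGME60 with the totals of all 4 tables, where 0 of 105 tested miRNAs were called lower. With depth as a covariate it was 2 at EGME75, 3 for the slope and 2 for EGME75 against EGME50. Of all 105 tested miRNAs, 10, 12 and 5 were called lower in these fits. For EGME75 against EGME50 it was also 2 with DESeq2's size factors in edgeR (6 of 105 called lower) and 1 with miRNA totals alone (3 of 105). Leaving out 1 library gave 1 to 4 members at EGME60, 5 to 6 at EGME75, 4 to 5 for the slope, 0 to 5 for EGME75 against EGME50, and 0 for the other comparisons. Leaving out the shallowest EGME0 and EGME75 libraries together, added after the data were seen, kept 6 at EGME75 and left 2 at EGME60. Of all 109 miRNAs tested without them, 21 and 12 were called lower. The 28 ratios between members at EGME75 gave 10 calls in libraries of at least 1000 miRNA counts and 4 with a pseudocount of 1, against 0. As a share of all 4 tables the members' sum was 0.0169%, 0.0160%, 0.00883% and 0.00318% at EGME0, EGME50, EGME60 and EGME75. The causes of these shifts were not tested. Depth limits the 3 rarest members: at the control level, the median EGME75 library would hold 4.57 counts of rno-miR-92a-3p, 5.04 of rno-miR-106b-5p and 6.75 of rno-miR-106b-3p, and the shallowest 0.375, 0.413 and 0.553.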
